A study of Mus musculus with 4 samples.

Results

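The genes of oxidative phosphorylation were compared between sorted mouse LSK cells (Lin-Sca-1+Kit+), a bone marrow fraction with the blood stem cells and their earliest progeny. Members were taken by gene symbol: nuclear symbols starting with Nduf, Sdha to Sdhd, Uqcr, Cox4i, Cox5 to Cox8 or Atp5, without Cox6a2, and the mitochondrially encoded mt-Nd, mt-Co, mt-Cytb and mt-Atp genes. The symbols matched 110 of 32285 annotated genes, of which 97 are nuclear and 13 are mitochondrial. A level of at least 10 CPM (CPM being a gene's UMIs scaled to a fixed library total, and a UMI the molecular tag that marks 1 captured RNA molecule) in any library was reached by 90 nuclear and all 13 mitochondrial genes, and each of these 103 genes reached it in all 4 libraries. Sdhaf3 lay just inside the limit at 13.9, 12.5, 12.7 and 11.9 CPM, and Ndufaf5 just outside at 7.64, 8.10, 7.99 and 8.30 CPM. Here and below, 4 values in a row are those of the libraries in the order control, Ikk2-CA alone, Jak2 V617F alone, both.

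All mice carried Vav1-iCre/+, which recombines floxed alleles in blood cells, and the controls carried no mutant allele. The Ikk2-CA mice carried in addition Ikk2-CA flox/+ (R26StopFLikk2ca), a constitutively active kinase of the NF-κB pathway placed at the Rosa26 locus. The Jak2 V617F mice carried Jak2 V617F flox/+, the activated kinase of myeloproliferative neoplasms, and the double mutants carried both alleles. The design text also names an NF-κB-responsive EGFP reporter in the crosses, without saying which mice carried it. Marrow of 5 mice aged 8 to 12 weeks was pooled per genotype, enriched for CD117 on beads, sorted and made into 1 droplet library. With 1 library per genotype no test was made and no p-value is given. Intervals are exact 95% intervals on UMI counts and cover counting error only, so differences between mice, sorts and libraries lie outside them.

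Oxidative phosphorylation makes ATP in the inner mitochondrial membrane. Complexes I and II pass electrons to ubiquinone, complex III passes them to cytochrome c, complex IV passes them to oxygen, and ATP synthase (complex V) uses the proton gradient that results. Most subunits are encoded in the nucleus and imported, while a few core subunits of complexes I, III, IV and V are encoded by mitochondrial DNA, and complex II has nuclear subunits only. Blood stem cells are known for a low reliance on oxidative phosphorylation at rest and a greater use of it once they divide and differentiate.

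The libraries held 9950, 10330, 15620 and 5774 barcodes, of which 8055, 9865, 14156 and 5268 passed the study's limits of 500 to 7500 genes and under 10% mitochondrial UMIs. That mitochondrial limit acts on the mt- members themselves. It removed 17.4% of barcodes in the control, 3.69% in Ikk2-CA, 9.07% in Jak2 V617F and 7.60% in the double library. Kept cells had medians of 10606, 17726, 11106.5 and 24915 UMIs, and the sums behind the CPM values were 102362297 to 197836491 UMIs per library. Library pairs shared 16 to 64 barcodes. The sort markers were present in all libraries, with Kit at 149, 87.6, 175 and 93.5 CPM and Ly6a (Sca-1) at 106, 233, 138 and 191 CPM. The makeup of the kept cells also differed. Lymphoid-primed-like cells made up 22.5%, 0.0710%, 15.7% and 3.13% of kept cells, and stem cell-like cells 10.7%, 0.101%, 10.7% and 2.64%. B cell-like cells made up 1.87%, 14.5%, 0.657% and 0.968%, and macrophage-like cells 2.32%, 0.0608%, 0.410% and 0.987%. Cells of clusters without a cell type name made up 50.5%, 74.1%, 58.9% and 84.8%. Xist, expressed in female cells, stood at 1176, 250.2, 0.257 and 319.8 CPM, so that it was nearly absent from the Jak2 V617F pool. Gm42418, a gene that overlaps ribosomal RNA sequence, stood at 1069.8, 1890.0, 853 and 3441 CPM. AY036118, taken beside it as a further marker, went the other way in the libraries with Ikk2-CA, at 120.5, 81.0, 134.9 and 93.9 CPM. Malat1, a nuclear RNA, stood at 8855, 6836, 7237 and 5699.8 CPM. The part of these differences in the results below was not tested.

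Nuclear respiratory genes are known to carry sites for the factors NRF1, the ETS protein GABP and YY1 close to their starts. A RefSeq promoter (GRCm38.p6, 250 bases before to 50 after the start) was matched by symbol for 75 of the 90 nuclear members. The 100 bases before to 30 after the start are shown for the member with the highest double-to-control ratio (Atp5k), for the liver-type cytochrome c oxidase subunit Cox8a, and for the member with the lowest ratio (Cox7a2l), with capitals marking the motif letters searched.
Atp5k, chr5:108434370-108434499, minus strand: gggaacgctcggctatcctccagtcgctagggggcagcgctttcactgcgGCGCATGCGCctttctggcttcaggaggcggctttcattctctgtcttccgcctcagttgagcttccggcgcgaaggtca
Cox8a, chr19:7217587-7217716, minus strand: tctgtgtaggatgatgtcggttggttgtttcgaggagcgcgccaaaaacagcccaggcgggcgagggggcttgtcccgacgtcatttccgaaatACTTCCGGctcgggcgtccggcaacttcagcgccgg
Cox7a2l, chr17:83514304-83514433, minus strand: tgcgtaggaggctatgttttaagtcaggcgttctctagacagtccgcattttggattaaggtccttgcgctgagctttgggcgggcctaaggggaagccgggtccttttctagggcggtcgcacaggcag
The letters searched on both strands were GCGCATGCG for NRF1, CCGGAAGT for ETS proteins and AAGATGGCG for YY1. On its reverse strand the first reads CGCATGCGC, so that the capitals in Atp5k are 2 overlapping matches, and the second reads ACTTCCGG, as in Cox8a. The NRF1 letters were found in 9 of 75 member promoters (12.0%), against 4.76% of 6783 other genes at 10 CPM and 1.95% of 27025 genes in the table. The ETS letters were found in 5 of 75 (6.67%), against 11.2% and 4.31%. The YY1 letters were found in 8 of 75 (10.7%), against 4.33% and 1.64%. At least 1 of the 3 was found in 21 of 75 (28.0%), against 19.0% and 7.48%. The 9 members with the NRF1 letters had a median log2 ratio to control of 0.37 in Ikk2-CA and 0.53 in the double mutant, and the 66 without them 0.27 and 0.35. With the YY1 letters the medians were 0.36 and 0.49, and without them 0.26 and 0.35. For the ETS letters the order was the opposite, with 0.19 and 0.24 in the 5 members that have them and 0.29 and 0.36 in the 70 that do not. A match shows only that the letters occur in the window.

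The nuclear genes took a larger share of the transcriptome in both libraries with Ikk2-CA, and the mitochondrially encoded genes a smaller one. The 90 nuclear members held 2.34%, 2.93%, 2.47% and 3.13% of UMIs. Relative to control the nuclear sum was 1.248-fold in Ikk2-CA, 1.05-fold in Jak2 V617F and 1.33-fold in the double mutant. The 13 mitochondrial genes held 4.30%, 3.40%, 4.67% and 3.63% of UMIs, which is 0.789, 1.09 and 0.844 times control. There were therefore 1.84, 1.16, 1.89 and 1.16 mitochondrial UMIs for each nuclear member UMI. The Ikk2-CA and double libraries lay at the same low ratio, and the Jak2 V617F library lay next to control. This ratio does not depend on how libraries are scaled, whereas the direction of the mitochondrial sum in the double mutant does. Its log2 ratio to control was -0.24 by library totals, 0.005 when scaled by TMM and 0.08 when scaled by median-of-ratios. In Ikk2-CA it was -0.34, -0.10 and -0.07 in the same order.

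The same order was seen in single cells. Over all 97 nuclear symbols, the median cell gave 2.16%, 2.80%, 2.27% and 2.95% of its UMIs to nuclear members, and 4.33%, 3.45%, 4.73% and 3.69% to mitochondrial ones. Thinning each cell to 5000 UMIs, which left out 838, 405, 1361 and 146 shallower cells, gave nuclear medians of 2.14%, 2.80%, 2.32% and 2.96%, and mitochondrial medians of 4.36%, 3.46%, 4.70% and 3.68%. The median cell had UMIs of 70, 81, 72 and 84 different nuclear members before thinning and 53, 60, 55 and 61 after it.

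**Figure D1:**
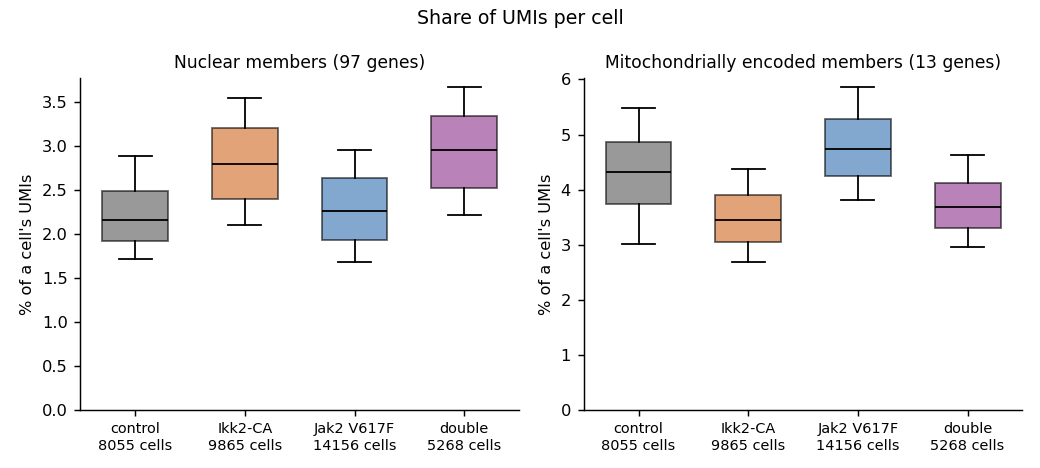
Share of each cell's UMIs (%) from the 97 nuclear and the 13 mitochondrially encoded members, by library. Lines are medians, boxes the middle 50% of cells and whiskers the 10th to 90th percentiles; nuclear medians are 2.16%, 2.80%, 2.27% and 2.95%, and mitochondrial medians 4.33%, 3.45%, 4.73% and 3.69%.

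Gene by gene, most nuclear members were above control in both libraries with Ikk2-CA. In Ikk2-CA 73 of 90 had a ratio above 1 and the median log2 ratio was 0.26, while the median of all 8377 genes tested was -0.23. The share of all genes above or below control without a fold was not taken. Such counts of genes, here and for the complexes and related lists below, therefore stand beside the median of all genes only. A level at least 25% above control was reached by 39 of 90 members, against 7.72% of all genes tested, and one at least 20% below it by 3, against 39.9%. These limits are the same fold in both directions and define higher and lower in all counts below. In the double mutant 79 of 90 were above control, with a median of 0.35 beside -0.24 for all genes. There 50 members were higher by that fold, against 6.88% of genes, and 1 was lower, against 40.3%. In Jak2 V617F the median was 0.06, 2 members were higher by that fold, against 4.63% of genes, and none of the 90 was lower, against 6.08%.

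Because so many genes lay below control in the libraries with Ikk2-CA, the members were also set against the median gene. On that scale 69 of 90 were higher and 1 lower in Ikk2-CA, against 19.2% and 18.9% of genes. In the double mutant 75 were higher and 1 lower, against 19.8% and 18% of genes. In Jak2 V617F 2 were higher and 0 lower, against 4.79% and 5.95%. The nuclear medians relative to the median gene were 0.49, 0.07 and 0.59 for Ikk2-CA, Jak2 V617F and the double mutant. That median gene was taken over genes with at least 10 CPM. At a limit of 50 CPM, which 83 members reached, the median gene lay nearer control, at -0.08 in Ikk2-CA and -0.03 in the double mutant. Measured from genes of such levels, the members therefore stand less far apart than these medians and counts show. TMM and median-of-ratios scaling likewise moved every ratio of the Ikk2-CA and double libraries to control upward, so named members only slightly below control change sign under them.

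**Figure D2:**
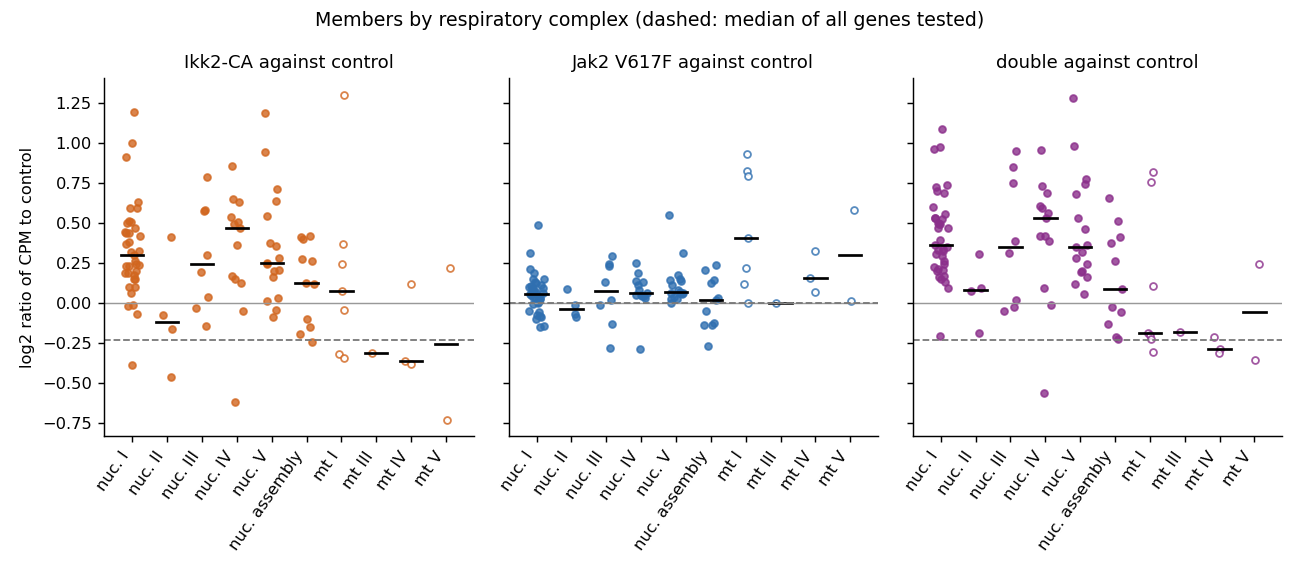
Log2 ratio of CPM to control for each member at 10 CPM, by complex, with nuclear genes filled and mitochondrial genes open. Short lines are the medians of each complex and dashed lines the median of all genes tested; nuclear complex IV has the highest nuclear medians in Ikk2-CA (0.47) and the double mutant (0.53).

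Complex I, the NADH dehydrogenase, supplied 37 nuclear members, and 33 of them were above control in Ikk2-CA, 27 in Jak2 V617F and 36 in the double mutant. Its median log2 ratios were 0.30, 0.05 and 0.36. The 7 nuclear core subunits, which bind the flavin and the iron-sulphur clusters, had medians of 0.15, -0.05 and 0.22. The 30 accessory subunits had 0.37, 0.06 and 0.48, and all 30 were above control in the double mutant. Ndufs1, the large iron-sulphur core subunit, had 47.7, 36.4, 44.4 and 41.3 CPM, lowest in Ikk2-CA at 0.764 times control (0.736 to 0.792). In the double mutant it was 0.865 times control by library totals, with a log2 ratio of -0.21 that became 0.11 with median-of-ratios factors.

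The accessory subunits included the highest nuclear ratio in Ikk2-CA, that of Ndufb1-ps. Ndufa3 had 120.3, 240.3, 131 and 237 CPM, which is 1.997-fold (1.96 to 2.04) in Ikk2-CA and 1.97-fold (1.93 to 2.01) in the double mutant. Both libraries with Ikk2-CA stood well apart from the other 2. Ndufb1-ps had 209, 476, 293 and 443 CPM, 2.28-fold in Ikk2-CA, 1.40-fold in Jak2 V617F and 2.12-fold in the double mutant. Its symbol marks it as a pseudogene and GENCODE lists it as a non-coding transcript of a bidirectional promoter, so what it encodes is uncertain here. Ndufs6, an accessory subunit that binds zinc, had 142, 184, 177 and 206 CPM, so that all 3 mutants were above control. Ndufa6 had 234, 276, 210.0 and 276 CPM, with Jak2 V617F the lowest.

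Of the X-linked members, Ndufa1, a small subunit needed for complex I assembly, had 108, 202, 125 and 210.0 CPM. Ndufb11 had 286, 336, 259 and 305 CPM. Cox7b of complex IV had 329.6, 509, 361 and 531 CPM. All 3 were above control in both libraries with Ikk2-CA, and in Jak2 V617F, the library with almost no Xist, 2 were above and Ndufb11 was below. In cells with at least 5000 UMIs and no Xist UMI, the median log2 ratios of the nuclear members were 0.25 in Ikk2-CA, 0.07 in Jak2 V617F and 0.36 in the double mutant.

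Complex II, succinate dehydrogenase, which also works in the citric acid cycle, did not follow the other complexes. Its 4 subunits had a median log2 ratio of -0.12 in Ikk2-CA, -0.04 in Jak2 V617F and 0.08 in the double mutant, the first becoming 0.16 with median-of-ratios factors. Sdha, the catalytic flavoprotein, had 125, 90.7, 119 and 109.9 CPM, 0.726 times control (0.709 to 0.742) in Ikk2-CA. In the double mutant its log2 ratio was -0.19 by library totals and became 0.14 with median-of-ratios factors. Sdhb, the iron-sulphur subunit, had 136, 181, 135 and 168 CPM, 1.33 times control (1.30 to 1.35). These partner subunits therefore lay on opposite sides of control in Ikk2-CA. The membrane anchors were nearer control, with Sdhc at 79.4, 75.2, 84.2 and 83.5 CPM and Sdhd at 129, 116, 122 and 138 CPM, and both turned above control in Ikk2-CA under TMM and median-of-ratios scaling.

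Complex III, which passes electrons from ubiquinol to cytochrome c, had 8 nuclear members with medians of 0.25, 0.07 and 0.35. Uqcrq, a small subunit beside cytochrome b, had 237, 408, 291 and 458 CPM, 1.72-fold (1.70 to 1.75) in Ikk2-CA, 1.23-fold in Jak2 V617F and 1.93-fold (1.90 to 1.96) in the double mutant. All 3 mutants were above control, and the double mutant was highest. Uqcrc2, a large core protein, had 189, 171, 156 and 186 CPM. It was lowest in Jak2 V617F, at 0.823 times control (0.808 to 0.838), while the double mutant was at 0.980. Its log2 ratio of -0.14 in Ikk2-CA became 0.13 with median-of-ratios factors.

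Complex IV, cytochrome c oxidase, had 13 nuclear members at 10 CPM, and 11 were above control in each library with Ikk2-CA. Its medians of 0.47, 0.06 and 0.53 were the highest of the nuclear complexes in Ikk2-CA and the double mutant. Several subunits exist as isoforms, and most of the tissue-specific forms did not reach 10 CPM. Cox4i1, the regulatory subunit, had 838, 929, 888 and 894 CPM, and its hypoxia-associated isoform Cox4i2 had 2.31, 1.94, 4.21 and 3.67 CPM. Cox7a2 had 333, 473, 344 and 481 CPM, and its muscle form Cox7a1 had 1.10, 2.28, 1.32 and 1.54 CPM. Cox6b1 had 410.2, 577, 443 and 618 CPM, while Cox6b2, the form known from testis, had 63.4, 61.1, 66.2 and 62.9 CPM and was nearly level. Cox6a1 had 183, 253, 189 and 270.1 CPM. Cox8a had 867, 976, 897 and 1159.6 CPM. Its other forms Cox8b and Cox8c had 0 to 3 UMIs per library. Ndufa4, now counted with complex IV, had 898, 976, 918 and 1173 CPM, and its counterpart Ndufa4l2 had 3, 23, 0 and 4 UMIs.

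Cox7a2l stood apart from the rest of complex IV. Its protein joins complex III to complex IV in respiratory supercomplexes. It had 524, 341, 429 and 354 CPM, which is 0.652 times control (0.644 to 0.659) in Ikk2-CA, 0.819 (0.810 to 0.828) in Jak2 V617F and 0.676 (0.668 to 0.684) in the double mutant. All 3 mutants were below control, and the 2 with Ikk2-CA were lowest. It had the lowest ratio of the nuclear members with at least 20 CPM in each mutant. Over the 16 alternatives that apply to a log2 ratio, its value in Ikk2-CA ranged from -0.68 to -0.34.

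ATP synthase had 17 nuclear members with medians of 0.25, 0.07 and 0.35, and all 17 were above control in the double mutant. Atp5k, the small membrane subunit e that holds dimers of the enzyme together, had 141, 322, 207 and 343 CPM. It was 2.27-fold (2.23 to 2.31) in Ikk2-CA, 1.46-fold (1.44 to 1.49) in Jak2 V617F and 2.42-fold (2.38 to 2.47) in the double mutant. Atp5md, another small membrane subunit, had 163, 312, 179.9 and 321 CPM. In contrast Atp5b, the catalytic beta subunit, had 705, 664, 718 and 805 CPM. Its log2 ratio was -0.09 in Ikk2-CA by library totals and up to 0.19 with the other scalings, and 0.19 in the double mutant. Subunit c, the proton-carrying ring, is made from 3 genes. Atp5g1 had 404, 491, 501 and 519 CPM, Atp5g2 771, 884, 816 and 886 CPM, and Atp5g3 274, 306, 309 and 341 CPM. All 3 were above control in every mutant, and Atp5g1 was 1.24-fold (1.226 to 1.254) in Jak2 V617F. Genes of this family have near-identical copies or processed pseudogenes, so their counts are less certain.

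The 11 assembly factors at 10 CPM had medians of 0.12, 0.02 and 0.09 and no common direction. Ndufaf3, a complex I assembly factor, had 30.7, 40.6, 25.6 and 30.2 CPM, high in Ikk2-CA and low in Jak2 V617F. Ndufaf1 had 24.1, 20.3, 24.4 and 23.1 CPM. The complex II factors Sdhaf2, with 30.2, 28.1, 27.4 and 26.0 CPM, and Sdhaf4, with 66.7, 58.4, 60.5 and 60.9 CPM, were highest in control, a direction that turned in the libraries with Ikk2-CA under TMM and median-of-ratios scaling.

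Members with short transcripts tended to have higher ratios in the libraries with Ikk2-CA. Lengths (the median over protein-coding basic transcripts in GENCODE vM21, or for Ndufb1-ps its non-coding one) were found for all 90. The 28 members under 600 nt had a median log2 ratio of 0.49 in Ikk2-CA and 0.56 in the double mutant, and the 20 members of 1500 nt or more had -0.004 and 0.16. Atp5k measured 321.5 nt and Sdha 2900 nt, while Ndufb1-ps, with a ratio as high as that of Atp5k in Ikk2-CA, measured 861 nt. All other genes tested showed an order of the same kind. Those under 600 nt had medians of 0.25 and 0.27, and those of 1500 nt or more -0.29 and -0.31. Within each length class the members lay above the other genes. In Ikk2-CA 20 of 28, 27 of 28, 11 of 14 and 18 of 20 members exceeded the median of other genes of their class, from shortest to longest, and in the double mutant 24, 27, 11 and 20 did. In Jak2 V617F the members' medians were 0.09 in the shortest and 0.03 in the longest class. Across the 90 genes Spearman's rho between length and log2 ratio was -0.56 in Ikk2-CA, -0.36 in Jak2 V617F and -0.57 in the double mutant, 3 values that share the control library. The part of length in the members' ratios was not tested.

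**Figure D3:**
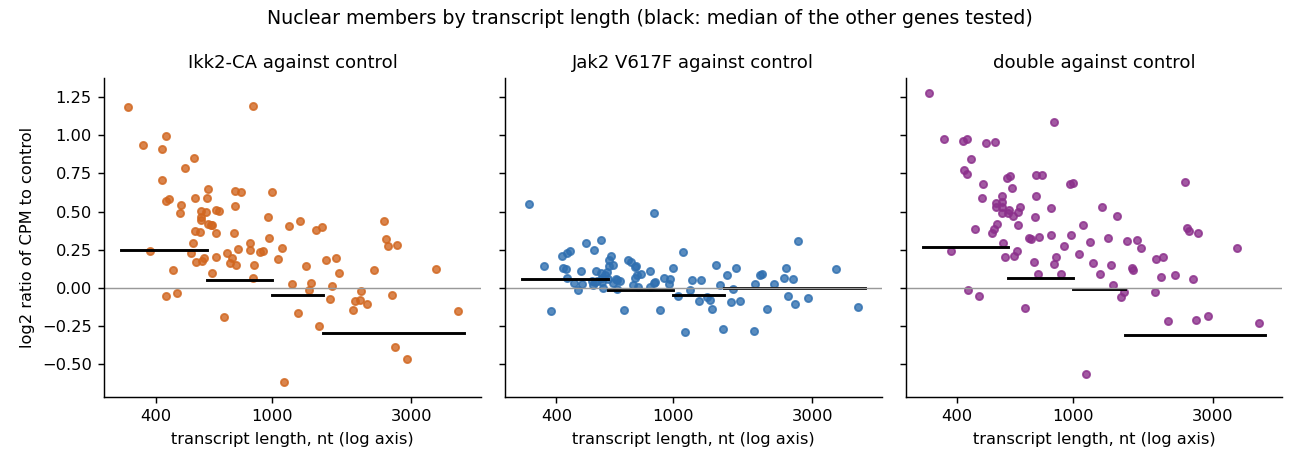
Log2 ratio of CPM to control against transcript length (nt, log axis) for the 90 nuclear members, 1 panel per mutant. Black lines are the medians of the other genes tested in 4 length classes; short members tend to lie higher in Ikk2-CA and the double mutant, and in Ikk2-CA the other genes' medians go from 0.25 under 600 nt to -0.29 at 1500 nt or more.

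The mitochondrially encoded genes did not share 1 direction. In Ikk2-CA the median log2 ratio of the 13 was -0.04 while that of their sum was -0.34, with 6 genes above control and 7 below. Under TMM, median-of-ratios and median-gene scaling that median was 0.20, 0.23 and 0.19. Against control 5 genes were lower by the same fold and 2 higher in Ikk2-CA, 6 higher and none of the 13 lower in Jak2 V617F, and 2 higher and 1 lower in the double mutant. The shares of all genes past that fold are those given above, 39.9% lower and 7.72% higher in Ikk2-CA, 6.08% and 4.63% in Jak2 V617F, and 40.3% and 6.88% in the double mutant, so the 5 of 13 lower in Ikk2-CA are near the background. Relative to the median gene, 5 were higher and 1 lower in Ikk2-CA, against 19.2% and 18.9% of genes. On that scale 6 were higher and 0 lower in Jak2 V617F, against 4.79% and 5.95%. In the double mutant 4 were higher and 0 lower, against 19.8% and 18%. The median log2 ratio was 0.22 in Jak2 V617F. In the double mutant it was -0.20 by library totals but 0.05 with TMM, 0.12 with median-of-ratios and 0.03 with median-gene scaling.

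mt-Atp6, a membrane subunit of ATP synthase, had 10403, 6268, 10493 and 8115 CPM. It was 0.602 times control (0.601 to 0.604) in Ikk2-CA and 0.780 in the double mutant, with Jak2 V617F level with control. Of the 3 mitochondrially encoded subunits of complex IV, mt-Co2 had 6775, 5274, 7542 and 5848 CPM and mt-Co3 9868, 7558, 10325 and 7957 CPM, both lowest in Ikk2-CA. mt-Co1 had 4568, 4955, 5714 and 3742 CPM and was lowest in the double mutant. mt-Cytb of complex III had 4512, 3636, 4506 and 3981 CPM. Below control by library totals, mt-Co2, mt-Cytb, mt-Nd2, mt-Nd5 and mt-Nd6 in the double mutant turned above it under TMM, median-of-ratios and median-gene scaling, and mt-Co1, mt-Co3 and mt-Nd4 under median-of-ratios scaling.

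The complex I genes differed among themselves. mt-Nd1 had 1906, 1848, 2525 and 2048 CPM, its ratio in Ikk2-CA changing sign with the scaling, mt-Nd2 1711, 1368, 1855 and 1502 CPM, and mt-Nd4 2394, 1888, 2388 and 1937 CPM. mt-Nd5 had 344, 407, 401 and 299 CPM. In contrast mt-Nd3 had 433, 557, 764 and 729 CPM, so all 3 mutants were above control. mt-Nd4l had 60.0, 148, 104 and 106 CPM, 2.46-fold (2.39 to 2.53) in Ikk2-CA, 1.73-fold in Jak2 V617F and 1.76-fold in the double mutant. mt-Nd6, encoded on the other strand, had 24.8, 26.1, 47.1 and 21.2 CPM, and Jak2 V617F was 1.90-fold (1.82 to 1.99). mt-Atp8 had 36.5, 42.3, 54.6 and 43.1 CPM. In the annotation mt-Atp8 shares 43 bases with mt-Atp6, mt-Nd4l shares 7 with mt-Nd4, and each pair lies on 1 transcript, so counts of the smaller partner are uncertain. mt-Nd5 and mt-Nd6 share 14 bases on opposite strands.

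**Figure D4:**
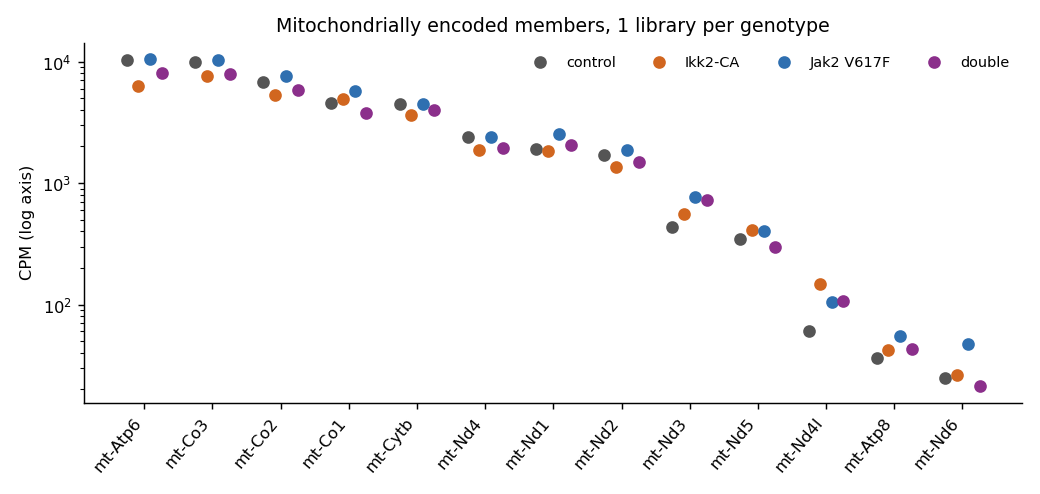
CPM (log axis) of the 13 mitochondrially encoded members in the 4 libraries, 1 point per library. mt-Atp6 is lowest in Ikk2-CA at 6268 CPM, while mt-Nd3 and mt-Nd4l are above control in all 3 mutants.

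The double mutant was set against each single mutant in turn. Against Jak2 V617F the nuclear median log2 ratio was 0.31, with 42 of 90 members higher by that fold, against 5.09% of genes, and 0 lower, against 39.6%. Against Ikk2-CA it was 0.10, with 0 members higher, against 7.91% of genes, and 1 lower, against 9.6%. That 1 was Ndufaf3, at 0.745 times Ikk2-CA (0.718 to 0.773). The mitochondrial sum of the double mutant was 1.07 times that of Ikk2-CA and 0.778 times that of Jak2 V617F. In mt-Co1 the double mutant was 0.755 times Ikk2-CA, and in mt-Atp6 1.29 times.

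Departure from additivity was taken as the log2 level of the double mutant minus those of both single mutants plus that of control, and is 0 where the separate ratios multiply. The nuclear median was 0.02, equal to the 0.02 of all genes, with 49 members above 0 and 41 below. The lowest values were -0.59 for Ndufb1-ps, -0.46 for Atp5k and -0.23 for Atp5g1, genes above control in both single mutants. The highest were 0.40 for Uqcrc2, 0.35 for Sdha and 0.34 for Cox7a2l. The mitochondrial median was -0.26, but -0.06 with all barcodes and -0.13 over members with at least 50 CPM, and mt-Nd4l had -1.27, mt-Nd6 -1.23 and mt-Co1 -0.73.

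Cells were grouped without using any member, any mt- gene, Xist or Y-linked genes, and Ikk2-CA had few cells in several clusters that the control filled. The control in turn had few cells in large clusters of the libraries with Ikk2-CA. Unnamed clusters of this kind had 4, 788, 16 and 2209 cells, 0, 2509, 6 and 35 cells, and 4, 1083, 8 and 1101 cells. These clusters enter no comparison to control, so the counts below leave out many cells of the libraries with Ikk2-CA. Among 27 clusters, comparisons were made where both libraries had at least 20 cells. The summed nuclear level was above control in 9 of 11 clusters for Ikk2-CA, 12 of 20 for Jak2 V617F and 14 of 14 for the double mutant. The summed mitochondrial level was below control in 10 of 11 clusters for Ikk2-CA and 13 of 14 for the double mutant, and above it in 20 of 20 for Jak2 V617F. The mitochondrial exception in both cases was a cluster with a median of 1523.5 UMIs and no cell type name. These values are by library totals, and the median gene in the clusters ranged from -0.22 to 0.31 in Ikk2-CA and from -0.24 to 0.09 in the double mutant.

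The unnamed exception had 493, 40, 150 and 61 cells, with nuclear ratios to control of 0.794, 0.812 and 1.03 and mitochondrial ones of 1.08, 1.73 and 1.596. In the 3 named clusters with at least 20 cells in every library, both libraries with Ikk2-CA lay above control for nuclear and below it for mitochondrial members, though UMIs per cell differed there too. In the granulocyte-monocyte-like cluster, with 315, 172, 364 and 121 cells, the nuclear ratios to control were 1.14, 0.992 and 1.22 and the mitochondrial ones 0.794, 1.06 and 0.790 for Ikk2-CA, Jak2 V617F and the double mutant. In a megakaryocyte-like cluster, with 172, 375, 516 and 184 cells, they were 1.18, 1.04 and 1.34, and 0.802, 1.07 and 0.821. In a B cell-like cluster, with 112, 865, 52 and 39 cells, they were 1.12, 1.01 and 1.12, and 0.875, 1.14 and 0.887. The stem cell-like cluster had 859, 10, 1519 and 139 cells, too few in Ikk2-CA to compare. There the double mutant was at 1.20 for nuclear and 0.841 for mitochondrial members, and Jak2 V617F at 0.996 and 1.04.

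**Figure D5:**
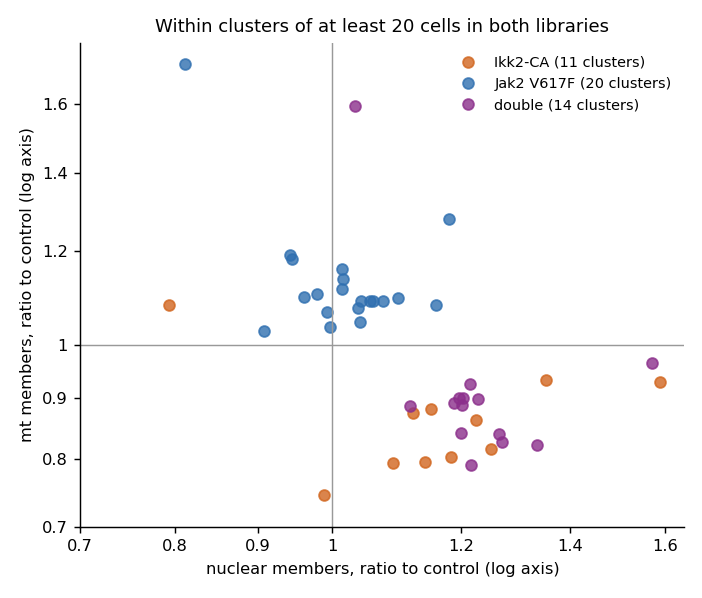
Ratio to control of the summed mitochondrial level against that of the summed nuclear level (both log axes), 1 point per cluster with at least 20 cells in both libraries. Double mutant clusters lie at nuclear ratios above 1, all but 1 with mitochondrial ratios below 1, and Jak2 V617F clusters lie at mitochondrial ratios above 1.

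Cells with more UMIs had larger nuclear shares in each library from 5000 UMIs upward, and UMIs per cell moved with the genotype. Among cells of 10000 to 20000 UMIs, with 3217, 4317, 5587 and 1553 cells, nuclear members held 2.26%, 2.69%, 2.51% and 2.54% of UMIs. In that class the Jak2 V617F and double libraries were nearly level. Mitochondrial members held 4.32%, 3.61%, 4.65% and 4.07%. Among cells of 20000 to 40000 UMIs the nuclear shares were 2.60%, 3.02%, 2.72% and 3.14%, and the mitochondrial shares 4.07%, 3.28%, 4.45% and 3.63%. Thinning equalises depth but not the kinds of cell that fall in a depth class, and the part of depth was not tested further.

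Related mitochondrial genes were summarised beside the members, as medians of log2 ratios to control in Ikk2-CA, Jak2 V617F and the double mutant. By TMM, median-of-ratios or median-gene scaling, list medians between 0 and -0.23 in the libraries with Ikk2-CA turn positive. The 78 mitochondrial ribosomal protein genes, whose ribosome translates the 13 mitochondrial messages, had 0.20, 0.04 and 0.25, and 62, 54 and 68 of them were above control. Mrps21 had 101, 166, 99.6 and 149 CPM. The 11 genes of mitochondrial DNA copying and transcription had -0.37, -0.08 and -0.24, and 10, 7 and 8 were below control. The polymerase gene Polg had 16.4, 12.1, 15.5 and 9.99 CPM, and the transcription factor gene Tfb2m 26.5, 19.2, 28.5 and 22.4 CPM. The median of all genes was -0.23 in Ikk2-CA and -0.24 in the double mutant, so relative to it this list lay at -0.14 and -0.01.

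The 15 genes of mitochondrial RNA handling and translation had medians of -0.14, 0.08 and -0.04. Within them Slirp, which stabilises mitochondrial messages together with Lrpprc, had 68.6, 123, 84.7 and 120.3 CPM, while Lrpprc had 27.1, 19.3, 30.2 and 23.2 CPM. In Ikk2-CA they lay on opposite sides of control. In the double mutant Lrpprc had a log2 ratio of -0.22 by library totals, beside -0.24 for the median gene, so it lies slightly above control relative to that gene. The 17 citric acid cycle genes had -0.10, -0.02 and -0.05. Pdha1, the X-linked entry enzyme subunit, had 82.9, 51.3, 70.2 and 58.6 CPM, and Fh1 had 88.5, 122, 85.0 and 106 CPM.

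The 35 assembly factors outside the symbol rule had medians of -0.07, 0.01 and -0.00, with Pet100 of complex IV at 59.9, 116, 71.2 and 118 CPM. Cox15 went the other way, at 14.2, 8.45, 11.8 and 8.79 CPM. In Ikk2-CA 13 of these 35 were above control and 22 below. The 12 carrier and electron transfer genes had -0.01, 0.01 and 0.11. Cytochrome c (Cycs) had 231, 319.8, 234 and 339 CPM, and the uncoupling-family carrier Ucp2 254, 362, 212 and 208 CPM. The 12 ubiquinone genes had -0.11, -0.04 and -0.11, and the 30 import and folding genes 0.03, 0.08 and 0.22. Among the latter Tomm7, a small subunit of the outer membrane import pore, had 278, 505, 319 and 551 CPM. Timm29 went the other way, with 15.9, 10.6, 14.5 and 12.0 CPM. In Ikk2-CA 17 of the 30 import and folding genes were above control and 13 below. The 8 antioxidant genes had -0.12, -0.01 and 0.03. The 12 regulators had -0.33, 0.02 and -0.19, and relative to the median gene -0.10 in Ikk2-CA and 0.04 in the double mutant. In Ikk2-CA 11 of them were below control and 1 was above it, at a log2 ratio of 0.78. Mycn had 35.9, 9.65, 33.0 and 21.5 CPM and Foxo3 51.4, 24.2, 37.4 and 26.2 CPM, both lowest in Ikk2-CA, and Gabpb1, a subunit of the ETS factor GABP, had 46.7, 33.0, 41.2 and 35.5 CPM.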

How the data were processed

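Droplet single-cell RNA libraries of sorted LSK cells were analysed, 1 per genotype. The deposited values are raw UMI counts per gene and barcode, which the authors made with Cell Ranger on mm10; the design text gives version 3.0.1 and the matrix headers 4.0.0. Per the series' design text the authors kept cells with 500 to 7500 genes and under 10% mitochondrial UMIs and used Seurat 4.0.0. The same limits were applied here.

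Counts of kept cells were summed per gene and library and scaled to CPM. Ratios, medians and exact 95% counting intervals were computed with Python 3.11.15, numpy 2.4.6, scipy 1.17.1 and pandas 2.3.3. A gene was tested where either library had 10 CPM, and counted as higher or lower at least 25% above or 20% below the other library. TMM factors came from edgeR 4.0.16 and median-of-ratios factors from DESeq2 1.42.0 in R 4.3.3, as scalings only. No test between genotypes was made, since each genotype has 1 library. UMIs count captured 3′ ends, so levels of different genes are not ranked.

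Cells were clustered together in scanpy 1.11.5 on 30 principal components of 2000 variable genes, with 15 neighbours and the Leiden method at resolution 1. A cluster received a cell type name ending in "-like" where at least 3 of a marker list's genes were among its 25 leading genes. That list also had to have more genes among the first 10 than any other list. Scrublet called 0, 155, 0 and 1 doublets, so its threshold did not work in these libraries and no cell was removed as a doublet; leaving out the 792, 854, 1952 and 267 highest-scoring cells was an alternative. The scripts were tested on simulated data.

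The members, related lists and alternatives were chosen with earlier results of these data known. Genes are named by 1 rule: all mitochondrial members; among nuclear members with at least 20 CPM, the 5 highest and 5 lowest ratios per mutant, the 3 highest and lowest of the double against each single mutant and of the departure from additivity; complex II subunits, isoform sets, X-linked members, members next to the 10 CPM limit; and up to 4 genes of each related list. Not all genes so chosen are described. The 3 promoters shown were picked after their values were seen.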

Additional observations from a re-analysis of the deposited data

How the results depend on the processing

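Beside the main settings, 17 alternatives were run. Of these, scaling to totals of nuclear UMIs moved none of the 27 medians, counts and mitochondrial-to-nuclear ratios of the whole lists. It moved 36 of the values for single genes, complexes and related lists counted at the end of this section. The ratio of mitochondrial to nuclear UMIs and the summed ratios were added as results after seeing the data. The direction of no called value reversed. The nuclear median stayed positive in all of them for each mutant, at 0.24 to 0.54 for Ikk2-CA, 0.02 to 0.08 for Jak2 V617F and 0.33 to 0.67 for the double mutant. The mitochondrial median ran from -0.23 to 0.23 for Ikk2-CA and from -0.34 to 0.12 for the double mutant, and its departure from additivity from -0.31 to -0.06. Values that moved follow, and the cause of their moves was not tested, apart from fewer members passing a larger fold or CPM limit. Shares of all genes were taken only at the main fold, by library totals and, against control, relative to the median gene. Counts of members under the other settings therefore have no such share beside them and are not read against a background. With TMM factors, the nuclear median log2 ratio was 0.51 for Ikk2-CA, 0.60 for the double mutant and 0.56 for the double mutant against Jak2 V617F, and the mitochondrial median log2 ratio was -0.098 for the double mutant against Jak2 V617F. By the same setting, the number of nuclear members called higher was 69 for Ikk2-CA, 77 for the double mutant and 76 for the double mutant against Jak2 V617F, and the number called lower was 1 for Ikk2-CA and 0 for the double mutant. With median-of-ratios factors, the nuclear median log2 ratio was 0.54 for Ikk2-CA, 0.67 for the double mutant, 0.14 for the double mutant against Ikk2-CA and 0.63 for the double mutant against Jak2 V617F, and the nuclear departure from additivity was 0.056. By the same setting, the mitochondrial median log2 ratio was -0.026 for the double mutant against Jak2 V617F, and the number of nuclear members called higher was 70 for Ikk2-CA, 79 for the double mutant, 1 for the double mutant against Ikk2-CA and 80 for the double mutant against Jak2 V617F. Again there, the number called lower was 1 for Ikk2-CA and 0 for the double mutant. Relative to the median gene, the nuclear median log2 ratio was 0.49 for Ikk2-CA, 0.59 for the double mutant, 0.073 for the double mutant against Ikk2-CA and 0.53 for the double mutant against Jak2 V617F, and the mitochondrial median log2 ratio was -0.13 for the double mutant against Jak2 V617F. There, the number of nuclear members called higher was 69 for Ikk2-CA and 75 for the double mutant against Jak2 V617F, and the number called lower was 1 for Ikk2-CA. At 1.5-fold, the number of nuclear members called higher was 14 for Ikk2-CA, 0 for Jak2 V617F, 22 for the double mutant and 15 for the double mutant against Jak2 V617F, and the number called lower was 1 for Ikk2-CA, 0 for the double mutant and 0 for the double mutant against Ikk2-CA. With all barcodes, the mitochondrial median log2 ratio was -0.34 for the double mutant, and the number of nuclear members called higher was 4 for Jak2 V617F. By the same setting, the mitochondrial-to-nuclear UMI ratio was 0.545 for Ikk2-CA, 0.923 for Jak2 V617F, 0.566 for the double mutant and 1.04 for the double mutant against Ikk2-CA. Under 5% mitochondrial UMIs, the number of nuclear members called higher was 4 for Jak2 V617F, and the number called lower was 1 for Jak2 V617F. By the same setting, the mitochondrial-to-nuclear UMI ratio was 0.678 for Ikk2-CA, 1.00 for Jak2 V617F, 0.674 for the double mutant, 0.995 for the double mutant against Ikk2-CA and 0.672 for the double mutant against Jak2 V617F. Under 20% mitochondrial UMIs, the mitochondrial-to-nuclear UMI ratio was 0.596 for Ikk2-CA, 0.989 for Jak2 V617F, 0.602 for the double mutant, 1.01 for the double mutant against Ikk2-CA and 0.609 for the double mutant against Jak2 V617F. With totals without mitochondrial and ribosomal protein UMIs, the nuclear median log2 ratio was 0.084 for Jak2 V617F and 0.13 for the double mutant against Ikk2-CA, and the number of nuclear members called higher was 4 for Jak2 V617F. With means over cells, the nuclear median log2 ratio was 0.024 for Jak2 V617F and 0.073 for the double mutant against Ikk2-CA, and the mitochondrial-to-nuclear UMI ratio was 0.657 for Ikk2-CA, 1.10 for Jak2 V617F, 0.673 for the double mutant and 1.02 for the double mutant against Ikk2-CA. With the B cell-like, granulocyte-monocyte-like and megakaryocyte-like classes and all other cells pooled as 1 class weighted to control shares, which leaves the makeup of the pooled cells as it was, the number of nuclear members called higher was 5 for Jak2 V617F, and the mitochondrial-to-nuclear UMI ratio was 1.02 for Jak2 V617F, 0.622 for the double mutant, 0.982 for the double mutant against Ikk2-CA and 0.609 for the double mutant against Jak2 V617F. Without lineage clusters, the number of nuclear members called higher was 5 for Jak2 V617F, and the mitochondrial-to-nuclear UMI ratio was 0.635 for Ikk2-CA, 1.02 for Jak2 V617F, 0.618 for the double mutant, 0.973 for the double mutant against Ikk2-CA and 0.607 for the double mutant against Jak2 V617F. In cells with no Xist UMI, the nuclear median log2 ratio was 0.13 for the double mutant against Ikk2-CA, and the number of nuclear members called higher was 5 for Jak2 V617F. There, the number called lower was 2 for Jak2 V617F, and the mitochondrial-to-nuclear UMI ratio was 0.657 for Ikk2-CA, 1.04 for Jak2 V617F, 0.636 for the double mutant, 0.967 for the double mutant against Ikk2-CA and 0.611 for the double mutant against Jak2 V617F. Thinned to 5000 UMIs, the nuclear median log2 ratio was 0.074 for the double mutant against Ikk2-CA, and the number of nuclear members called higher was 4 for Jak2 V617F. There, the number called lower was 1 for Jak2 V617F and 2 for the double mutant, and the mitochondrial-to-nuclear UMI ratio was 0.621 for Ikk2-CA, 1.02 for Jak2 V617F, 1.02 for the double mutant against Ikk2-CA and 0.624 for the double mutant against Jak2 V617F. With no CPM minimum, the number of nuclear members called higher was 1 for the double mutant against Ikk2-CA, and the number called lower was 1 for Jak2 V617F and 3 for the double mutant against Ikk2-CA. At 50 CPM, the number called lower was 0 for the double mutant against Ikk2-CA. Without the highest doublet scores, the mitochondrial-to-nuclear UMI ratio was 0.638 for Ikk2-CA, 1.03 for Jak2 V617F, 0.639 for the double mutant and 0.618 for the double mutant against Jak2 V617F. Of 2618 values for single genes, complexes and related lists, 1536 stayed within the interval of their main value and 1082 moved. No paired analysis was possible because each genotype has 1 library and no result comes from a test. Depth limits genes near 10 CPM, and variation between mice and libraries cannot be told apart from genotype.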
